A study of Mus musculus with 3 samples.

Results

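Of the 30406 gene identifiers that all libraries listed, 6 were followed, those of Gm4208, Cfap77, Agrp, Gm10260, Kcnj8 and Styk1. They were chosen by their fall in the summed counts of thymic cells from transplanted mice with graft-versus-host disease (GvHD) relative to transplanted mice without it, so the size of that fall is given below as a description and supports nothing. The 3 libraries, 1 per group, were droplet single-cell RNA-seq of thymic cells from pooled mice, depleted of CD8+ cells and then sorted as TCRβ+, CD24-, NK1.1- and positive for the CD1d tetramer, the reagent that binds the invariant receptor of iNKT cells. The groups were C57BL/6 mice of 7 weeks without transplantation, F1 mice (C57BL/6 × BALB/c) of 16 weeks that had received lethal irradiation and C57BL/6 bone marrow depleted of T cells 9 weeks before (BM only), and F1 mice of the same age and time after bone marrow transplantation (BMT) that had received splenic cells beside the marrow and developed chronic GvHD (BM + Spl). Strain, host, age and the version of the counting software differed between C57BL/6 and the BMT groups and cannot be told apart. The paper names more than 1 kind of library kit without saying which library used which. A difference in library preparation cannot be told apart from the groups either. With 1 library per group no test was possible, and every 95% interval below covers counting error only.

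iNKT cells are T cells with a nearly invariant receptor that develop in the thymus, where their precursors can give rise to effector subsets. NKT1 cells depend on T-bet and make IFN-γ, NKT2 cells are rich in PLZF and make IL-4, and NKT17 cells depend on RORγt and make IL-17. NKT1 cells share much of their program with NK cells, including receptors encoded in the NK gene complex. The 6 genes have no common pathway. Styk1 encodes a receptor-like kinase (NOK) also found in NK cells, and Kcnj8 encodes Kir6.1, the pore of ATP-sensitive potassium channels. Agrp encodes agouti-related peptide, a melanocortin receptor antagonist best known from hypothalamic neurons, and Cfap77 encodes a protein of the ciliary axoneme. Gm4208 is annotated as a long intergenic noncoding RNA, and Gm10260 as protein-coding in GENCODE but as a pseudogene of Rps18, the gene of a small ribosomal subunit protein, in RefSeq.

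The genes lie apart in the genome (GRCm38, GENCODE annotation, all on the minus strand). Gm4208 (ENSMUSG00000100426) lies at chr1:62821355-62832370 and Cfap77 (ENSMUSG00000079502) at chr2:28926949-29055066. Agrp (ENSMUSG00000005705) lies at chr8:105566698-105637393, where its longest isoform overlaps Ripor1 and Ctcf on the other strand and the noncoding Gm5914 on the same strand. Gm10260 (ENSMUSG00000069117) lies at chr13:97760072-97760632 inside Gm26619, a noncoding gene of the other strand. Kcnj8 (ENSMUSG00000030247) lies at chr6:142564837-142571614 and Styk1 (ENSMUSG00000032899) at chr6:131299142-131353597, beside the NK gene complex.

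Gm10260 was so close to Rps18 that its counts are uncertain. The coding sequences of both, 456 bases each, differed at 4 positions, an identity of 99.1%. Counted from 1 at the A of the start codon, and with the Rps18 base first, the differences were T186C, A337C, G371A and G431A. The stretch from base 326 to base 440 holds 3 of them and is shown with the differing bases in capitals (GENCODE transcripts, 5′ to 3′). T186C lies outside this stretch, and the untranslated parts are not shown. The coding sequence of Gm10260 lies at chr13:97760133-97760588 in 1 segment and that of Rps18 at chr17:33952046-33955620 in 5 segments, both on the minus strand.
Gm10260: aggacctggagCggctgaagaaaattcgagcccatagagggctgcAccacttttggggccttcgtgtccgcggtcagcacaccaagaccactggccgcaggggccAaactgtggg
Rps18: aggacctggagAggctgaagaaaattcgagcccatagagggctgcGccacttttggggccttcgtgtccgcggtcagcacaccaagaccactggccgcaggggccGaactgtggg
How the counting had treated reads that match both genes was not given in the sources used here. Rps18 itself was at 6576 UMIs per 1000000 (CPM) in C57BL/6, 4292 in BM only and 4746 in BM + Spl, an order that Gm10260 did not share.

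Cells entered the counts if mitochondrial UMIs were below 10% and between 200 and 6000 genes were detected, which left 4434 in C57BL/6, 5970 in BM only and 5557 in BM + Spl. A UMI stands for 1 captured transcript, and CPM here is the sum of a gene's UMIs over cells relative to that of all shared gene identifiers. The median depth was 12086.5, 4740 and 6495 UMIs per cell. The libraries of BM only and BM + Spl had 43 cell barcodes in common, and C57BL/6 shared none with either. Leaving those barcodes out moved no summary value past the band set around it, which is described in the closing part.

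Gm4208 had 621 UMIs in C57BL/6 (10.6 CPM, 95% interval 9.75 to 11.4), 751 in BM only (21.6 CPM, 20.1 to 23.2) and 27 in BM + Spl (0.626 CPM, 0.413 to 0.911). Cfap77 was the most abundant of the 6 in BM only, with 8478 UMIs (244 CPM, 238 to 249), against 75 in C57BL/6 (1.28 CPM, upper bound 1.60) and 630 in BM + Spl (14.6 CPM, 13.5 to 15.8). Agrp had 14 UMIs in C57BL/6 (0.238 CPM, 0.130 to 0.400), 869 in BM only (25.0 CPM, 23.3 to 26.7) and 110 in BM + Spl (2.55 CPM, 2.10 to 3.07). BM only was thus the highest library for each of these genes, while C57BL/6 and BM + Spl took different places behind it. Gm10260 had 70 UMIs in C57BL/6 (1.19 CPM, 0.928 to 1.50), 3552 in BM only (102 CPM, 98.7 to 105) and 653 in BM + Spl (15.1 CPM, 14.0 to 16.4). Kcnj8 had 240 UMIs in C57BL/6 (4.08 CPM, 3.58 to 4.63), 1116 in BM only (32.1 CPM, 30.2 to 34.0) and 60 in BM + Spl (1.39 CPM, 1.06 to 1.79). Styk1 had 1038 UMIs in C57BL/6 (17.7 CPM, 16.6 to 18.8), 1036 in BM only (29.8 CPM, 28.0 to 31.6) and 65 in BM + Spl (1.51 CPM, 1.16 to 1.92). The genes took different orders. Gm4208, Kcnj8 and Styk1 were lowest in BM + Spl, below C57BL/6, whereas Cfap77, Agrp and Gm10260 were lowest in C57BL/6 and kept a higher level in BM + Spl than there, with no overlap of the counting intervals between neighbours in either order.

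**Figure D1:**
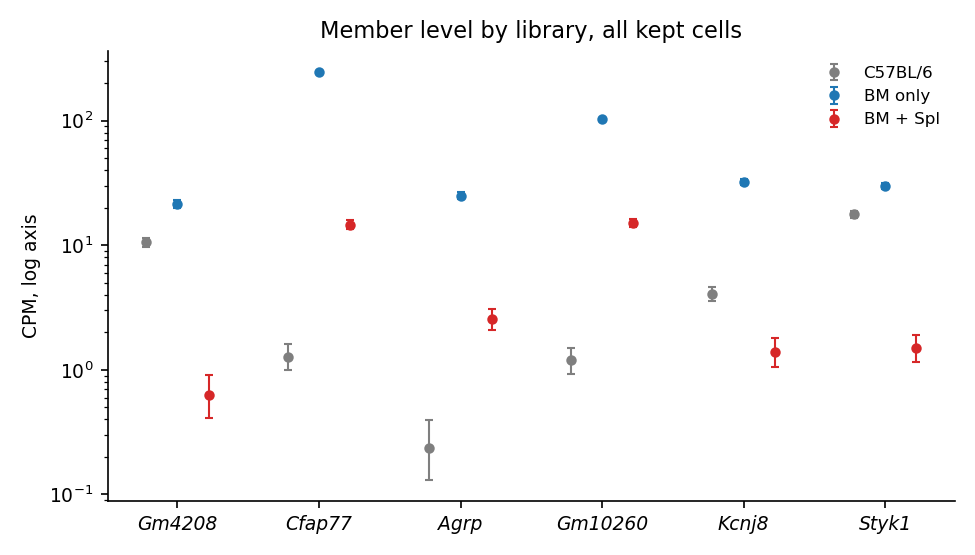
CPM of each gene (log axis) over all kept cells of C57BL/6, BM only and BM + Spl, 1 library each, with exact Poisson 95% intervals as bars. BM only is highest for all 6 genes, and BM + Spl lies under C57BL/6 for Gm4208, Kcnj8 and Styk1 and above it for Cfap77, Agrp and Gm10260.

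Between BM only and BM + Spl, the contrast that chose them, the genes were 34.5-fold (Gm4208), 23.0-fold (Kcnj8), 19.8-fold (Styk1), 16.7-fold (Cfap77), 9.79-fold (Agrp) and 6.74-fold (Gm10260) lower in BM + Spl. All 6 members were at least 4-fold lower, as were 0.584% of the 10612 genes with at least 200 UMIs over both libraries. Their places among those genes, counted from the largest fall, were 10 for Gm4208, 13 for Kcnj8, 15 for Styk1, 16 for Cfap77, 26 for Agrp and 35 for Gm10260. The median log2 ratio was -4.18 over the members and 0.01 over all genes compared. Fewer cells that carry a gene and less RNA in each such cell cannot be told apart in these sums.

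Cells were therefore assigned to gates by marker UMIs, each cell thinned to 2000 UMIs, with 12 (C57BL/6), 541 (BM only) and 256 (BM + Spl) shallower cells kept apart. The NKT1 gate asked for at least 2 UMIs of Tbx21, Il2rb, Cxcr3, Nkg7, Xcl1 and Klrd1, without the NKT2, NKT17, CD8, regulatory T, cycling or other lineage markers. It held 1104 cells of C57BL/6 (24.9%), 2417 of BM only (40.5%, Clopper-Pearson 95% interval 39.2 to 41.7) and 706 of BM + Spl (12.7%, 11.8 to 13.6). All 6 gate markers were detected there in each library, at a summed 2093, 3598 and 2666 CPM. The share of gated cells with a marker was lower in BM + Spl than in BM only. It was 95.2 and 68.4% for Nkg7 in BM only and BM + Spl, 80.5 and 52.3% for Klrd1, and 77.5 and 36.3% for Xcl1. For Tbx21 it was 42.1 and 29.3%, for Il2rb 87.2 and 82.2%, and for Cxcr3 56.7 and 54.5%. Xcl1 reached 365 UMIs in a single cell of BM + Spl. The gate is thus not matched for its own markers. The tetramer sort also held other cells, and 218 cells (BM only) and 435 cells (BM + Spl) had markers of B, myeloid, plasmacytoid dendritic or erythroid cells or CD4+CD8+ thymocytes.

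Gm4208, Kcnj8 and Styk1 were genes of the NKT1 gate. In BM only it held 91.6% of the UMIs of Gm4208 in gated cells, 90.2% of those of Kcnj8 and 88.7% of those of Styk1. The share in C57BL/6, a library that the choice of the genes did not use, was 64.1% for Gm4208, 84.9% for Kcnj8 and 88.0% for Styk1. Of the UMIs of all shared gene identifiers in kept cells, the gate held 33.9% in BM only and 14.3% in C57BL/6. In BM only Gm4208 was at 57.2 CPM in NKT1-gated cells (675 UMIs), 2.37 in NKT2-gated cells (13 UMIs) and 0.458 in NKT17-gated cells (1 UMI). Kcnj8 was at 82.8, 0.728 and 1.37 CPM in the same order, and Styk1 at 73.4, 0.546 and 5.95 CPM. In C57BL/6 Styk1 was at 109 CPM in NKT1-gated cells (912 UMIs) and 0.421 in NKT2-gated cells (9 UMIs), and Kcnj8 at 24.2 and 0.140 CPM (203 and 3 UMIs). Gm4208 was less restricted there, at 47.5 CPM in the NKT1 gate and 5.81 in the NKT2 gate (398 and 124 UMIs).

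Cfap77, Agrp and Gm10260 had a wider distribution in BM only. The NKT1 gate held 62.6%, 67.6% and 68.9% of their UMIs in gated cells, beside 33.9% of the UMIs of all shared gene identifiers in kept cells. Cfap77 was at 444 CPM in NKT1-gated cells, 338 in cells with both NKT1 and NKT2 markers, 385 in NKT17-gated cells, 200 in CD8-gated cells, 172 in regulatory T-gated cells and 27.1 in NKT2-gated cells. Gm10260 had a like order, at 205, 165, 121, 59.8, 37.3 and 19.8 CPM in these gates, and Agrp was at 49.3, 33.9, 30.7, 19.4, 13.8 and 5.83 CPM. NKT17-gated cells thus carried this trio at levels far above the NKT2 gate, although they held almost no Gm4208 or Kcnj8. CD8-gated cells did not divide the genes in this way. Their Gm4208 and Kcnj8 (17.9 and 14.9 CPM, on 12 and 10 UMIs) were also above the NKT2 gate (2.37 and 0.728 CPM) and near their Agrp. Within C57BL/6 no gate of at least 50 cells had over 2.51 CPM of Cfap77, the NKT1 value.

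In BM only, all 6 members were at least 4-fold higher in the NKT1 than in the NKT2 gate, with a background of 3.23% of the 8814 genes with at least 100 UMIs over both gates. The choice of members had used these BM only counts, and the NKT1 gate held a smaller share of cells in BM + Spl. It thus favoured genes of this gate, and the count is a description. The smallest ratio was 8.46-fold for Agrp. The largest, for Styk1, rests on 3 UMIs in the NKT2 gate (log2 ratio 7.07, 5.52 to 9.35). In BM + Spl the order was kept by Kcnj8 (37 UMIs in the NKT1 gate, 1 in the NKT2 gate) and Styk1 (41 and 0 UMIs). It was not seen for the other trio, as the log2 ratio of NKT1 over NKT2 was 0.42 (-0.03 to 0.87) for Cfap77, -0.15 (-1.24 to 0.84) for Agrp and -0.28 (-0.76 to 0.19) for Gm10260. Gm4208 was the exception among the NKT1 genes. It had 0 UMIs in the 706 NKT1-gated cells of BM + Spl, and 14 of its 27 UMIs lay in the NKT2 gate and 11 in cycling cells.

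**Figure D2:**
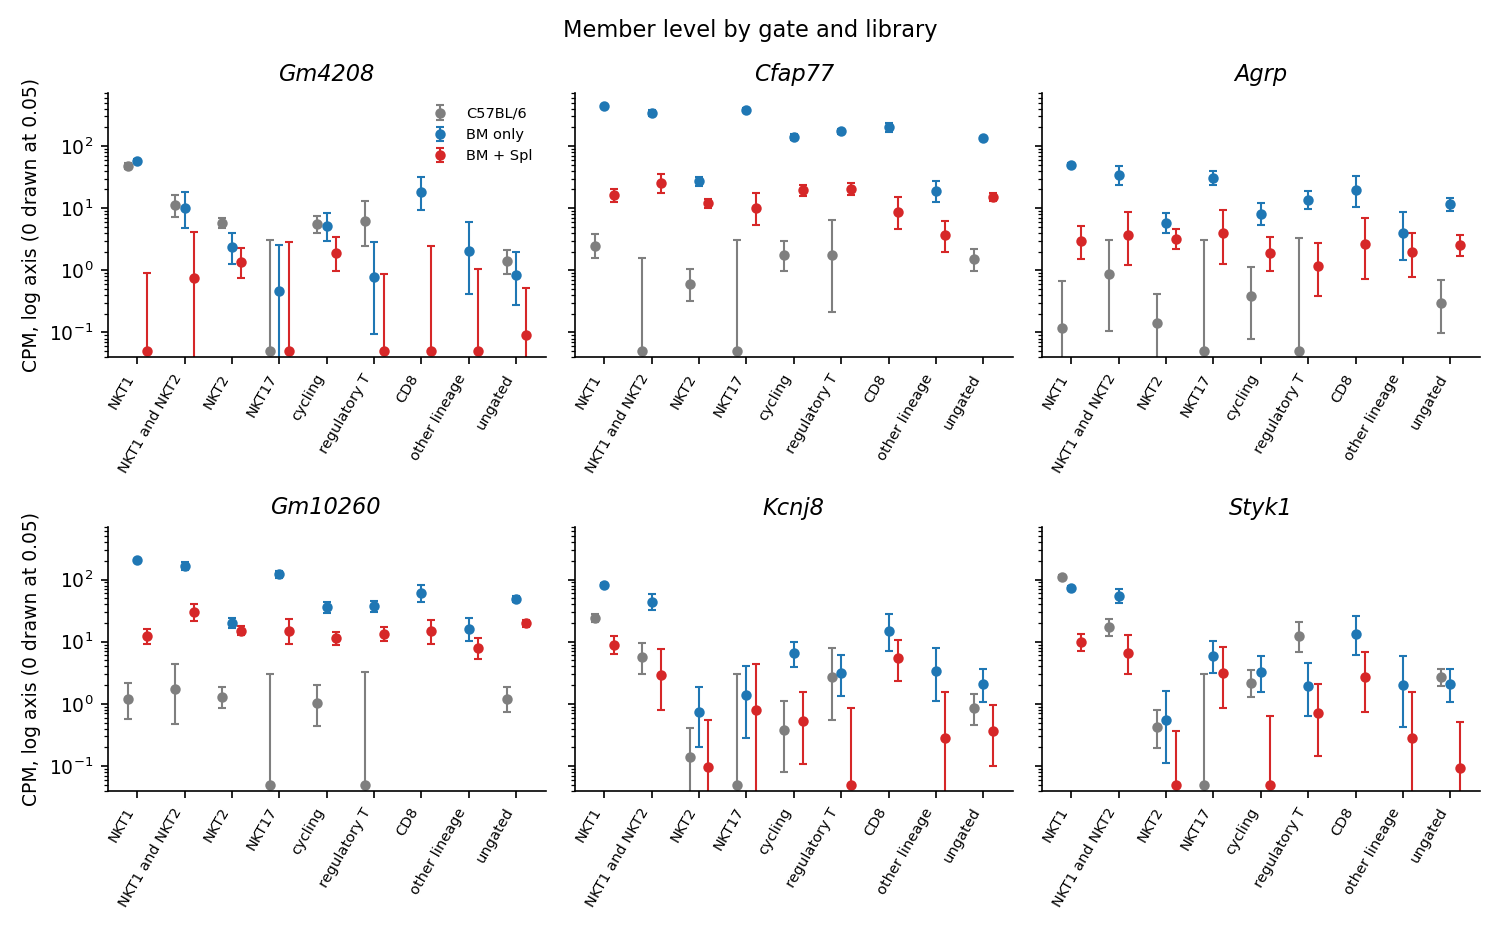
CPM of each gene (log axis, with 0 drawn at 0.05) in each gate of at least 50 cells, by library, with exact Poisson 95% intervals as bars cut at the axis. Gm4208, Kcnj8 and Styk1 peak in the NKT1 gate of BM only and C57BL/6, while Cfap77, Agrp and Gm10260 are high in most gates of BM only and within a narrow range across those of BM + Spl.

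Inside the NKT1 gate the genes were again lower in BM + Spl than in BM only. Gm4208 had 0 against 675 UMIs, 78.5-fold lower if 3 UMIs are put in place of 0 (upper limit of the log2 ratio -5.99). Cfap77 was 27.7-fold lower (16.0 against 444 CPM), Agrp 16.9-fold (2.91 against 49.3 CPM) and Gm10260 16.5-fold (12.4 against 205 CPM). Kcnj8 was 9.22-fold lower (8.99 against 82.8 CPM) and Styk1 7.37-fold (9.96 against 73.4 CPM). All 6 members were at least 4-fold lower in this gate, as were 0.599% of 8678 genes with at least 100 UMIs. The median log2 ratio was -4.06 over the members and 0.03 over those genes. The choice of members had used the counts of these cells, so both values are a description and support nothing. The gate itself had also become another mixture: 91.2% of its cells with a called V beta segment carried one of the iNKT segments in BM only (1980 cells) and 41.0% in BM + Spl (254 cells). Among the NK cell markers, Tyrobp was at 81.0 CPM in the gate of BM only and 202 in that of BM + Spl. The share of cells with Tyrobp was 7.61% and 6.09%, with up to 101 UMIs in 1 cell of BM + Spl. Ncr1 was at 21.2 and 28.2 CPM and Eomes at 1.86 and 3.64. Lower in BM + Spl were Fcer1g (272 and 238), Itga2 (6.18 and 2.91) and Klrb1c, which encodes the NK1.1 antigen removed by the sort (120 and 20.9). The summed NK list was at 502 and 495 CPM, while the summed lists of regulatory T (116 and 376 CPM), CD8 (18.5 and 61.4) and NKT17 markers (46.9 and 138) were higher in the gate of BM + Spl, and the part of these other cells in the fall was not tested beyond the V beta split that follows.

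The fall was also seen among NKT1-gated cells with an iNKT V beta. There Cfap77 was at 473 CPM in BM only and 20.1 in BM + Spl (log2 ratio -4.56, -5.12 to -4.05), Gm10260 at 216 and 16.9 (-3.68, -4.30 to -3.12) and Agrp at 51.7 and 4.54 (-3.51, -4.83 to -2.46). Kcnj8 was at 87.9 and 7.13 CPM (-3.62, -4.63 to -2.78) and Styk1 at 78.1 and 7.13 CPM (-3.45, -4.46 to -2.61). Gm4208 had 575 UMIs against 0, 30.8-fold lower with 3 UMIs in place of 0 (upper limit of the log2 ratio -4.64). All 6 were at least 4-fold lower, as were 0.847% of 7793 genes. These cells had also entered the choice of members, so that count is a description as well. In NKT1-gated cells with another V beta, the trio of Cfap77, Agrp and Gm10260 was 28.0-, 13.6- and 16.4-fold lower in BM + Spl. The NKT1 genes were lower there in BM only, Gm4208 at 17.4 CPM, Kcnj8 at 37.8 and Styk1 at 22.5. The falls of Kcnj8 (3.54-fold) and Styk1 (4.42-fold) were smaller. Gm4208 had 17 against 0 UMIs, 11.4-fold lower with 3 UMIs in place of 0 (upper limit of the log2 ratio -3.05).

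Carriers in the NKT1 gate were fewer for all 6 genes, with none left for Gm4208. UMIs per carrier were lower for Cfap77, Gm10260, Agrp (1.29 in BM only and 1 in BM + Spl) and Kcnj8 (1.33 and 1.06). They were not lower for Styk1 (1.39 in BM only and 1.46 in BM + Spl, the latter on 28 carriers). UMIs per carrier cannot be below 1 and come near it where UMIs are few. A lower value alone does not show less RNA in each carrier. In NKT1-gated cells of BM only 51.3% carried Cfap77 (49.3 to 53.3), with 4.23 UMIs per carrier and up to 37 UMIs in 1 cell. In BM + Spl 8.36% carried it (6.42 to 10.6), with 1.12 UMIs. Gm10260 was in 44.7% of these cells in BM only with 2.24 UMIs per carrier and in 5.95% in BM + Spl with 1.21 UMIs. Thinned to 2000 UMIs, the share with Cfap77 was 41.7% in BM only and 2.55% in BM + Spl. It was 2.75% and 0.460% of cells with other lineage markers (median depths 6009.5 and 7106 UMIs). Whether those cells lack the gene was not tested. Kcnj8 was in 30.5% (BM only) and 4.96% (BM + Spl) of NKT1-gated cells, or 16.1% and 2.69% thinned, Styk1 in 25.8% and 3.97% (13.5% and 1.42% thinned), and Agrp in 18.6% and 1.70% (8.27% and 0.283% thinned). In BM + Spl the share with Agrp was close to that in other lineage cells (1.61%, or 0.230% thinned), and whether either is background was not tested. Gm10260 was in 5.95% of NKT1-gated and 6.44% of other lineage cells, but the latter were deeper, and thinned the shares were 1.98% (1.09 to 3.30) and 1.38% (0.508 to 2.98).

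Gm4208 was carried by few cells with several UMIs each. Its 675 UMIs in NKT1-gated cells of BM only lay in 285 cells (11.8%), where an even spread at the depth of each cell would have given 576. In C57BL/6 its 398 UMIs lay in 109 NKT1-gated cells against 324 for an even spread. In BM + Spl 12 cells of the whole library carried it, 1 of them with 9 UMIs and 3 with at least 3 UMIs. Kcnj8 was closer to an even spread, with 736 carriers in NKT1-gated cells of BM only against 782. Styk1 had 624 carriers against 710 in BM only and 365 against 592 in C57BL/6.

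**Figure D3:**
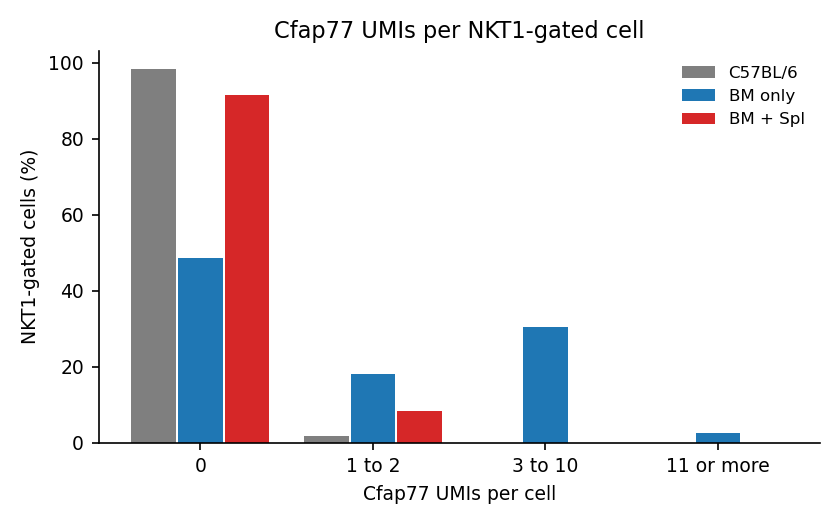
Percentage of NKT1-gated cells (bars from 0) with 0, 1 to 2, 3 to 10 and 11 or more UMIs of Cfap77 in each library. In BM only 30.5% of these cells have 3 to 10 UMIs and 2.61% have 11 or more, while none of the NKT1-gated cells of C57BL/6 or BM + Spl has over 2.

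A change in the makeup of gates alone would have given a smaller fall than the observed one for each member. If each gate had kept its BM only level and the share of UMIs per gate had moved to that of BM + Spl, Gm4208, Kcnj8 and Styk1 would each have been 2.60- to 2.61-fold lower, against the observed 34.5-, 23.0- and 19.8-fold. Cfap77 would have been 1.63-fold lower, Agrp 1.73-fold and Gm10260 1.77-fold, against 16.7-, 9.79- and 6.74-fold. On the log2 scale the makeup came to between 17.4% (Cfap77) and 32.0% (Styk1) of the fall, with a median log2 ratio of -1.10 against the observed -4.18. These shares depend on the order of the calculation. With the makeup of BM only kept and the levels alone moved, the falls were 50.9-fold (Gm4208), 16.1-fold (Cfap77) and 9.33-fold (Agrp). They were 7.07-fold for Gm10260, 9.21-fold for Kcnj8 and 7.41-fold for Styk1. For Gm4208 and Gm10260 that exceeds the observed fall. The level expected from the makeup exceeded the observed one from 3.80-fold for Gm10260 to 13.2-fold for Gm4208. In this order the rest of the fall lay within the gates, for every member. Fewer cells of a kind that the gates do not resolve and less RNA per cell cannot be told apart there. With gates split by V beta as well, a choice made after values were seen, the makeup came to between 18.9% (Cfap77) and 40.6% (Styk1).

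**Figure D4:**
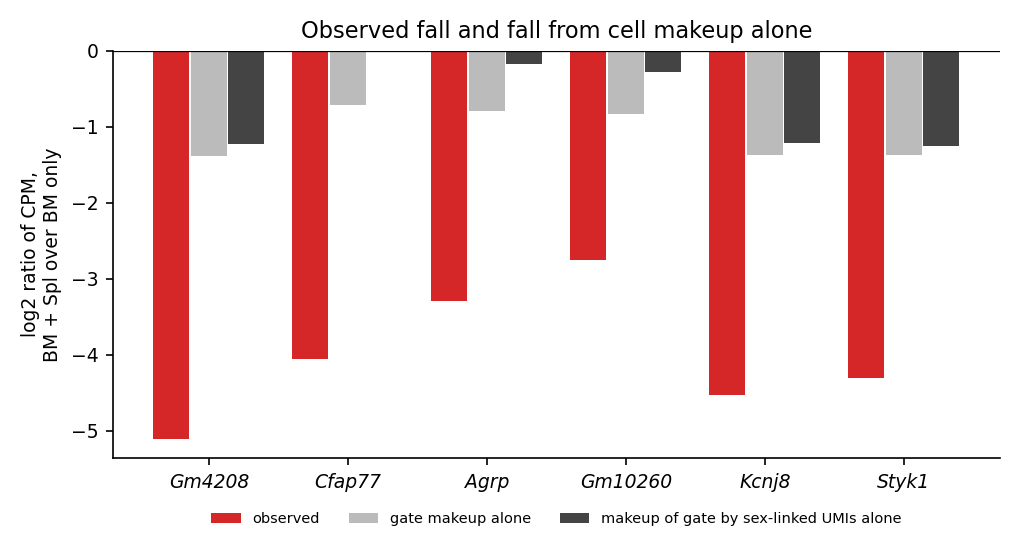
Log2 ratio of CPM, BM + Spl over BM only, as observed over all kept cells (red), from a change of the gate makeup alone (light grey) and from a change of the makeup of gates split by sex-linked UMIs alone (dark grey), 1 bar per gene. The observed bars run from -2.75 (Gm10260) to -5.11 (Gm4208), and the makeup bars from -1.38 to -0.01.

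The members divided again when cells were classed by sex-linked transcripts, a split added after values were seen. Cells with Xist, the noncoding RNA of the inactive X chromosome, and no UMI of the Y-linked Eif2s3y, Ddx3y, Uty and Kdm5d are called Xist cells, and those with a Y-linked UMI and no Xist are called Y-linked cells. C57BL/6 had 4311 Xist cells and 0 Y-linked cells, BM only 847 and 2220, and BM + Spl 936 and 2461, with neither kind of UMI in 123, 2868 and 2109 cells and both in 0, 35 and 51. The pooled BMT libraries thus held cells of both kinds. The sources used here give no sex of donors or hosts, and whether the classes stand for donor and host cells was not tested.

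In BM only Cfap77, Agrp and Gm10260 were far higher in Xist cells than in Y-linked cells. In NKT1-gated cells Cfap77 was at 916 CPM in 593 Xist cells (2722 UMIs) and 23.4 CPM in 567 Y-linked cells (73 UMIs), a 39.2-fold difference (log2 ratio 5.29, 4.96 to 5.65), and 92.2% of the Xist cells but 6.70% of the Y-linked cells carried it. Gm10260 was at 401 and 25.0 CPM (1191 and 78 UMIs), a 16.0-fold difference, and Agrp at 98.9 and 8.97 CPM (294 and 28 UMIs, log2 ratio 3.46, 2.90 to 4.08). The 1236 cells of the gate with neither kind of UMI lay between, with Cfap77 at 432 CPM (2386 UMIs), so that 2722 of its 5242 UMIs in the gate were in Xist cells. The 2 classes had near-equal median depth, 4813 and 4728 UMIs. Gm4208 and Styk1 were alike in both, at 62.6 and 52.2 CPM (log2 ratio 0.26, -0.05 to 0.57) and at 73.3 and 61.8 CPM (0.25, -0.04 to 0.53). Kcnj8 lay between, at 104 and 50.9 CPM (1.03, 0.75 to 1.31). Of 6324 genes with at least 100 UMIs over these cells, 7 or 0.111% were at least 4-fold higher in Xist cells, and 3 of the 6 members were among them. Xist, which defines the classes, is among the 7 by construction, with 997 and 0 UMIs.

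The gates of BM only differed in their Xist cells. Of cells in 1 of the 2 classes, Xist cells made up 51.1% in the NKT1 gate of BM only, 38.3% in the NKT17 gate and 2.23% in the NKT2 gate. Within Xist cells Cfap77 was high wherever there were cells, at 994 CPM in the NKT17 gate (79 cells), 1552 in regulatory T-gated cells (19 cells) and 479 in the NKT2 gate (9 cells). Within Y-linked cells it was at 23.4 CPM in the NKT1 gate and 19.7 in the NKT2 gate (log2 ratio 0.25, -0.24 to 0.73), while Agrp (1.13, 0.19 to 2.11) and Gm10260 (0.77, 0.26 to 1.29) stayed higher in the NKT1 gate. Kcnj8 and Styk1 kept the contrast of NKT1 over NKT2 within Y-linked cells, with 159 against 1 and 193 against 1 UMIs, and Gm4208 did as well (163 against 12).

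Neither Xist cells of C57BL/6 nor those of BM + Spl were high in the trio. The 1032 Xist cells in the NKT1 gate of C57BL/6 had 19 UMIs of Cfap77 (2.38 CPM), 0 of Agrp and 10 of Gm10260 (1.25 CPM). The NKT1 gate of BM + Spl held 244 Xist cells, 61.3% of its cells in either class, and in these Cfap77 was at 15.8 CPM, Agrp at 3.60 and Gm10260 at 7.91, beside 15.5, 2.58 and 15.5 CPM in 154 Y-linked cells. From BM only to BM + Spl, Cfap77 was thus 57.8-fold lower in Xist cells of the gate and 1.51-fold lower in its Y-linked cells (log2 ratio -0.59, -1.42 to 0.17). For Gm10260 the same values were 50.6- and 1.61-fold, with an interval in Y-linked cells of -1.52 to 0.07 on the log2 scale, and for Agrp 27.5- and 3.47-fold, the latter on 3 UMIs (-4.16 to -0.10). Kcnj8 and Styk1 were lower in both classes, 9.63- and 14.8-fold for Kcnj8 and 14.6- and 3.78-fold for Styk1. Gm4208 was at 0 UMIs in both, 29.0- and 20.2-fold lower with 3 UMIs in place of 0 (upper limits of the log2 ratio -4.54 and -4.02). Of the 68 Xist cells of this gate in BM + Spl that also had an iNKT V beta, 8 UMIs of Cfap77 were counted (21.0 CPM, 9.05 to 41.3), against 2368 in 515 such cells of BM only (921 CPM).

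**Figure D5:**
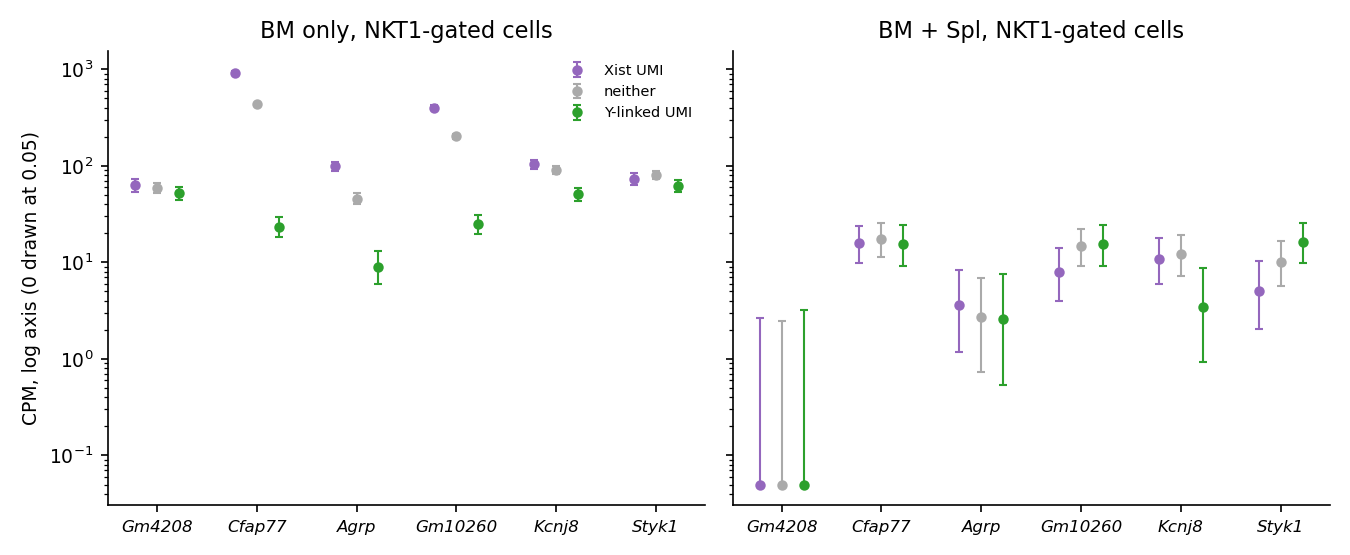
CPM of each gene (log axis, with 0 drawn at 0.05) in NKT1-gated cells of BM only (left) and BM + Spl (right), split into Xist cells (purple), cells with neither kind of UMI (grey) and Y-linked cells (green), with exact Poisson 95% intervals. In BM only Cfap77, Agrp and Gm10260 separate by class, 916 against 23.4 CPM for Cfap77, and in BM + Spl they do not, 15.8 against 15.5 CPM.

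With the makeup of gates split by sex-linked UMIs, a change of makeup alone would have left Cfap77 1.01-fold lower, at 241 CPM against the 14.6 observed, Agrp 1.12-fold and Gm10260 1.22-fold lower. For Gm4208, Kcnj8 and Styk1 it gave 2.35-, 2.32- and 2.39-fold. The calculation takes Xist cells of a gate as the same kind of cell in both libraries, which was not tested. Over all kept cells, Xist cells differed in the noncoding gene Gm15494, at 17.8 CPM in BM only and 175 in BM + Spl. Fewer cells of a kind that these classes do not resolve and less RNA per cell cannot be told apart here. BM + Spl held 936 Xist cells and BM only 847. The few cells of BM + Spl with 3 or more UMIs of Cfap77, 18 in all, lay outside the NKT1 gate, 3 of them Xist cells and 12 Y-linked cells, and 12 also carried Gm10260.

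Cells with 1 gene of the trio were richer in the others. In NKT1-gated cells of BM only, Gm10260 was at 362 CPM in the 1240 carriers of Cfap77 and 31.3 in the 1177 others, and Agrp at 85.0 and 9.96 CPM. Gm4208 (54.6 and 59.9 CPM) and Styk1 (72.9 and 74.0 CPM) were alike in both. Carriers of Kcnj8 had more Gm4208 than other cells, 105 against 36.4 CPM. Carriers also differ in depth, and those of Cfap77 in sex-linked class, as 92.2% of Xist cells and 6.70% of Y-linked cells of this gate carried it. Neither was adjusted for, and whether the trio goes together within a class was not tested.

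Over 25 sums of at least 50 cells (gate by library), the genes whose log2 CPM (pseudocount 1) followed each member most closely among 10612 were found. The sums share libraries, so Pearson's r is a description. For Cfap77 they were Agrp (r = 0.95), Gm10260 (0.95) and the heat shock gene Hspa1b (0.93), and for Gm10260 Agrp (0.96), Cfap77 (0.95) and Hspa1b (0.94). Agrp had Lsamp, a neuronal adhesion molecule, in the third place (0.92). Lsamp was also split by class in NKT1-gated cells of BM only, at 39.7 CPM in Xist cells and 0.961 in Y-linked cells (118 and 3 UMIs), while Hspa1b was at 351 and 291 CPM. Kcnj8 was followed by Ifitm10 (0.95), Dapk2 (0.92) and the Ly49 gene Klra5 (0.91), Styk1 by Klrc2 (0.93), Chsy1 (0.93) and the integrin gene Itga1 (0.92), and Gm4208 by Slc38a2 (0.86), Klra6 (0.82) and Klra9 (0.81). All of these were lower in BM + Spl than in BM only within the NKT1 gate, from log2 ratio -1.28 for Slc38a2 to -5.61 for Klra6 (-8.66 to -3.74, on 2 UMIs in BM + Spl). The sums used for matching included this gate of both libraries, so a shared fall follows from how these genes were picked and supports nothing.

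Partners by function or position differed among themselves. For Kcnj8, the sulfonylurea receptor genes Abcc8 and Abcc9, the latter 16248 bases away, had 0 UMIs in both BMT libraries, as did the pore gene Kcnj11. For Agrp, the receptor genes Mc3r and Mc4r had 0 UMIs, and Pomc, the precursor of the agonists, was at 4.14 CPM in BM only and 3.90 in BM + Spl. Of 32 other Cfap genes 7 had at least 200 UMIs, of which 0 were 4-fold lower, with a median log2 ratio of 0.24 beside 0.01 over all genes. Cfap77 was chosen for its fall and these genes were not, so its difference from them follows from the choice. In the NK gene complex around Styk1, 27 genes were listed and 21 had at least 200 UMIs. Of these, 9 were at least 4-fold lower (0.584% of all genes compared) and 0 at least 4-fold higher, with a median of -1.49. The interval of the log2 ratio lay below 0 for 17 of them and above 0 for 4. Within the NKT1 gate 18 reached 100 UMIs, of which 9 were at least 4-fold lower (0.599% of all genes compared), among them Klra7 (112 to 3.40 CPM) and Klrb1c, and 1 higher, Klrb1b (7.37 to 29.9 CPM). The nearest gene to Styk1, Magohb (5898 bases away), was at 46.6 and 36.4 CPM there. Of 12 genes of the NKT1 program outside the gate list, 3 were at least 4-fold lower over all cells, again beside 0.584%, with Gzma at 143 and 10.7 CPM, Gzmb at 164 and 34.6 and Stat4 at 69.5 and 49.6. Within the NKT1 gate 3 were at least 4-fold lower as well, beside 0.599%, and their median was -0.86 (-1.29 with an iNKT V beta). Gzma was there at 357 and 7.53 CPM, and Stat4 at 129 and 135.

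Of the genes next to the members, those with over 80 UMIs in each library differed far less than the members. Nrp2, 2660 bases from Gm4208, was at 2.82 and 2.04 CPM in BM only and BM + Spl, and Ttf1, 5196 bases from Cfap77, at 14.7 and 13.5. Atp6v0d1, 651 bases from Agrp, was at 81.1 and 90.1 CPM, and Ctcf and Ripor1, inside the span of Agrp on the other strand, at 104 and 113 and at 21.1 and 17.5 CPM. Gm26619, which contains Gm10260 on the other strand, had 13 UMIs in BM only and 5 in BM + Spl. Its log2 ratio was -1.69 (-3.53 to -0.11). Gm10260 had 3552 and 653 UMIs in the same libraries, and how the counting treated strand is not given in the sources used here.

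Against C57BL/6, BM only was 191-fold higher for Cfap77, 105-fold for Agrp, 85.7-fold for Gm10260, 7.86-fold for Kcnj8, 2.04-fold for Gm4208 and 1.69-fold for Styk1. At least 4-fold higher were 4 of the 6 members and 6.82% of 10540 genes, and the high level in BM only had entered the choice of members. The libraries also differed in how often a V beta was called. In the NKT1 gate an iNKT V beta was called in 107 of 1104 cells of C57BL/6 and in 1980 of 2417 of BM only. Median depths there were 6597.5 and 4486 UMIs. The part of library preparation in the differences from C57BL/6 was not tested. Within the NKT1 gate 3 of the 6 members, Cfap77, Agrp and Gm10260, were at least 4-fold higher, with a background of 4.15%. Kcnj8 was at 24.2 CPM in C57BL/6 and 82.8 in BM only, Gm4208 at 47.5 and 57.2, and Styk1 at 109 and 73.4, which is 1.48-fold lower after BMT without spleen cells. Measured within the NKT1 gate, then, Gm4208 and Styk1 in BM only were near their level without BMT, and BM + Spl lay below both.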

How the data were processed

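Thymic cells of 3 mouse libraries were measured, 1 each of C57BL/6, BM only and BM + Spl. The authors mapped reads to mm10 in Cell Ranger, and the deposited matrices hold raw UMI count values by gene and cell. The matrix headers name Cell Ranger 3.0.2 for C57BL/6 and 7.0.0 for the BMT libraries, and which kit served which library and how introns were counted are not given in the sources used here. Samples were grouped by their titles. Members were matched by symbol, 1 identifier each. They, the marker gates and the lists were chosen with earlier results of these data known.

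Counts were summed over cells per gate and scaled to CPM. Gates were set in this order on cells thinned to 2000 UMIs: other lineage (4 UMIs of a list), cycling, regulatory T (3 each), CD8 (2), NKT17 (3), NKT1 and NKT2 (2 each). A V beta class needed 80% of V beta UMIs in, or outside, 6 iNKT segments. Intervals are exact Poisson for CPM, Clopper-Pearson for shares and conditional binomial for ratios, all at 95% and for counting error only. A fold against 0 UMIs was computed with 3 UMIs in place of 0, which leaves out the counting error of the other library. Named were the members, for each the 3 genes most like it, the partner lists and the neighbours. Doublets were kept. The calculations were tested on simulated data. Scripts ran in Python 3.11.15 with scanpy 1.11.5, scipy 1.17.1 and numpy 2.4.6. Alternatives changed the thinning, the UMIs asked of a gate, the cell filter, doublets, scaling and the cells richest in a member, and others were added after values had been seen.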

Additional observations from a re-analysis of the deposited data

How the results depend on the processing

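No paired analysis was possible because each group has 1 library and no labels pair the samples. Median values over the 6 members were recomputed under 6 planned settings and under 6 added after the data were seen, and no direction was reversed. Each value reported had a band, the medians of the lower and upper interval ends of the members. For the gate makeup the band was set from the counting error of the BM only counts alone. The bands are a yardstick and not intervals of the medians. Under the planned settings 22 values stayed within the band and 3 did not. The share of member UMIs in the NKT1 gate of BM only was 78.8%, and 65.1% with gates on unthinned cells and 81.3% without the cells of highest doublet scores. The log2 ratio over all kept cells was -4.18, and -4.54 without the 10 cells richest in each member. That expected from the gate makeup was -1.10, and -1.31 with gates split by V beta and -0.75 with gates split by sex-linked UMIs. Within the NKT1 gate it was -4.06, and -4.82 in Xist cells and -1.86 in Y-linked cells, in which Cfap77, Agrp and Gm10260 were low in both libraries. The cause was not tested. Depth limits what is said of Agrp and Gm4208 in BM + Spl, which have 12 and 0 UMIs in the NKT1 gate. Gm4208 in BM + Spl rests on few cells, with 92.6% of its UMIs in the 10 richest.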

Other observations

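Other genes divided by the sex-linked classes as well, and not all in the direction of Cfap77. They were noticed after values had been seen. Rnaset2b, a lysosomal ribonuclease gene, was at 195 CPM in Xist cells and 7.42 in Y-linked cells of BM only, and at 293 and 7.85 CPM in BM + Spl. It was at 158 CPM in the Xist cells of C57BL/6. Adamts13, which encodes the protease that cleaves von Willebrand factor, was at 6.32 CPM in Xist cells and 74.1 in Y-linked cells of BM only, and at 2.42 and 59.4 in BM + Spl. In C57BL/6, where no Y-linked cells were found, it had 8 UMIs in all. Gm15494, a noncoding gene, was at 17.8 CPM in Xist cells and 253 in Y-linked cells of BM only, but at 175 and 239 CPM in BM + Spl, and had 1 UMI in C57BL/6. Rnaset2b and Adamts13 therefore kept their division between the BMT libraries, while Gm15494, like Cfap77, Agrp and Gm10260, divided in BM only and much less in BM + Spl. The cause was not tested.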
